A study of Arabidopsis thaliana with 9 samples.

Results

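LTI30 and COR27 are a pair of Arabidopsis thaliana genes known for their induction by cold, and their transcripts were measured in root tips of wild type and of mutants in HD-ZIP III transcription factors. They were taken as the single-gene probe sets of the ATH1 array annotated with either symbol. This gave 1 probe set for LTI30 (AT3G50970, chromosome 3) and 1 for COR27 (AT5G42900, chromosome 5), that is 2 of 13356 genes with a single-gene probe set. The genes were picked with their values in these genotypes known, so their own levels and differences are given as a description, with no test. Each group had 3 arrays, each from about 200 tips of 0.5 mm cut from primary roots 4 days after germination. The alleles of the triple mutant were cna-2, phb-13 and phv-11. The quadruple mutant had rev-6 in addition, and the wild type was Col er-2. The labels of the quadruple mutant are not uniform: some name its PHV allele phv-11 and others phv-6, and the titles write phb1. Quadruple homozygotes were picked by their radial cotyledons out of offspring segregating for rev-6. The labels do not say whether the mutants also carry er-2. No treatment was applied, and the vertical plates were kept at 22 °C under days of 18 h light and 6 h dark. The time of day of dissection is not given in the sources used here.

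LTI30, also called XERO2, encodes a dehydrin. Dehydrins are hydrophilic proteins of the late embryogenesis abundant (LEA) class that protect membranes and proteins when cells lose water, and their genes respond to cold, drought and abscisic acid. COR27 encodes a small protein induced by cold and expressed towards evening, which acts in the circadian clock, in light signalling and in freezing tolerance. Cold reaches many such genes through the CBF transcription factors, and water loss through abscisic acid. HD-ZIP III factors are known for their part in organ polarity and vascular patterning.

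PHV, the 1 mutated gene with a single-gene probe set here, had a log2 signal between 7.14 and 7.28 on wild-type arrays, between 4.71 and 4.77 on triple-mutant arrays and between 5.03 and 5.22 on quadruple-mutant arrays. It checks the labels of mutant against wild type and not which arrays carry rev-6.

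LTI30 was highest in the triple mutant and lowest in the quadruple mutant. On the log2 scale of the normalized array signal its 3 wild-type arrays stood at 8.87, 9.09 and 8.72. The triple-mutant arrays stood at 9.97, 10.42 and 9.46, and the quadruple-mutant arrays at 8.56, 8.56 and 8.26. Every triple-mutant array lay above every wild-type array and every quadruple-mutant array lay below every wild-type array, so the 3 groups did not overlap. The wild-type mean was 8.89 ± 0.19 (SD, n = 3), that of the triple mutant 9.95 ± 0.48 (SD, n = 3) and that of the quadruple mutant 8.46 ± 0.17 (SD, n = 3). Of all 22746 probe sets, 0.4% had this order with no overlap. The figure is a background for a gene chosen on these arrays and nothing is read from it.

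The LTI30 level of the triple mutant was 2.08-fold that of wild type, a log2 difference of 1.06 (SE 0.21). The level of the quadruple mutant was 1.35-fold lower than wild type, a log2 difference of -0.44 (SE 0.21), and 2.81-fold lower than the triple mutant, a log2 difference of -1.49 (SE 0.21). All 3 arrays lay above all 3 for 7.89% of probe sets in the triple mutant against wild type. All 3 lay below all 3 for 5.17% in the quadruple mutant against wild type and for 7.61% in the quadruple against the triple mutant. The comparisons share arrays: both comparisons with wild type use the same wild-type arrays, and both comparisons with the triple mutant the same triple-mutant arrays. The distance between wild type and the quadruple mutant was the smallest of the 3, with 0.16 on the log2 scale between the lowest wild-type and the highest quadruple-mutant array. That gap is under 1 SD of either group.

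Within each genotype the LTI30 array numbered 3 was the lowest. Arrays that share a replicate number were correlated in their deviations across probe sets for the triple mutant with wild type and for the 2 mutants with each other. Compared number by number, the log2 difference between the triple mutant and wild type was 1.09, 1.33 and 0.75, with an SD of 0.29 over the 3 numbers. The difference between the quadruple mutant and wild type was -0.31, -0.54 and -0.46, with an SD of 0.11. The triple mutant was thus higher in 3 of 3 numbers. For the quadruple mutant and wild type that correlation was 0.043 for number 1, 0.342 for number 2 and 0.360 for number 3. For the low value of number 1, the numbers were not read as pairing the arrays there, so the number-by-number values only describe them. When the replicate number entered the fit as a block, the SE of each LTI30 difference fell from 0.21 to 0.12 while the differences stayed as they were. Each array was left out in turn: the difference between the triple mutant and wild type then lay between 0.82, without triple-mutant replicate 2, and 1.299, without triple-mutant replicate 3, and that between the quadruple mutant and wild type between -0.53 and -0.34.

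COR27 differed less between genotypes and its groups overlapped in all 3 comparisons. Its log2 signal on the wild-type arrays was 5.96, 5.50 and 5.64. On the triple-mutant arrays it was 6.76, 6.66 and 5.85, and on the quadruple-mutant arrays 6.22, 5.89 and 5.95. Of the triple-mutant arrays, those numbered 1 and 2 lay above all the others and the one numbered 3 lay among the wild-type values. These signals lay around the array medians of 5.79 to 5.95, and no detection call was used here. The wild-type mean was 5.70 ± 0.23 (SD, n = 3), that of the quadruple mutant 6.02 ± 0.17 (SD, n = 3) and that of the triple mutant 6.42 ± 0.50 (SD, n = 3). In this order the triple-mutant mean lay within 1 triple-mutant SD of the quadruple-mutant mean, and wild type and the quadruple mutant lay 0.32 apart.

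**Figure D1:**
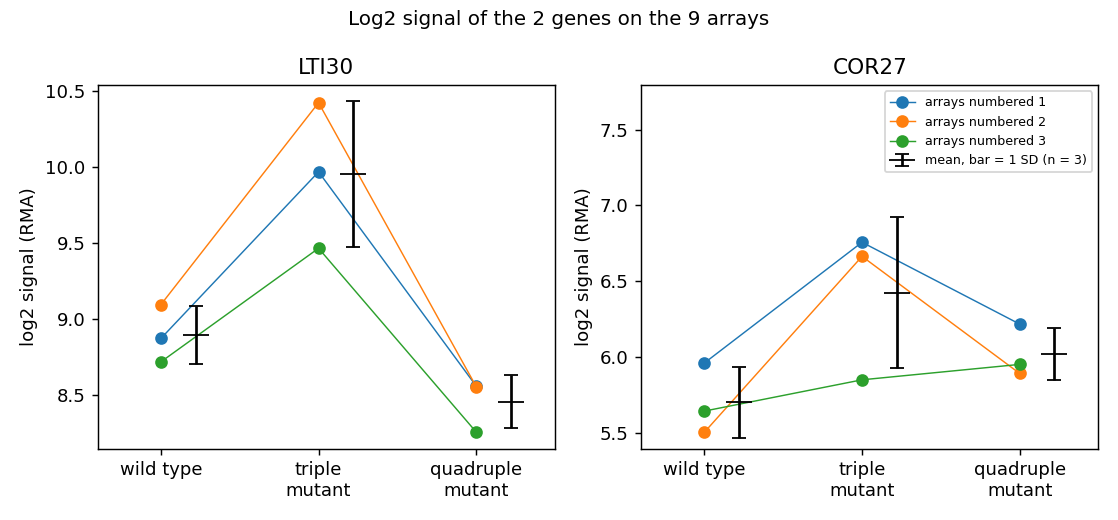
Log2 signal (vertical axis) of LTI30, left, and COR27, right, in wild type, the triple and the quadruple mutant. Each point is 1 array, lines join arrays with the same replicate number, and bars show the mean and 1 SD (n = 3). LTI30 separates into 3 levels, from 8.26 to 8.56 in the quadruple mutant up to 9.46 to 10.42 in the triple mutant, whereas the COR27 values overlap.

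The COR27 level of the triple mutant was 1.65-fold that of wild type (log2 difference 0.72, SE 0.22). The quadruple mutant stood at 1.25-fold of wild type (log2 difference 0.32, SE 0.22) and 1.32-fold below the triple mutant (log2 difference -0.40, SE 0.22). Number by number, the triple mutant was above wild type by 0.80, 1.16 and 0.21 on the log2 scale, and the quadruple mutant was above wild type by 0.26, 0.39 and 0.31. The triple mutant was thus higher in 3 of 3 numbers. The values for the quadruple mutant set side by side arrays that are not read as pairs, and those groups overlapped. The quadruple mutant was lower than the triple mutant for numbers 1 and 2, at -0.54 and -0.77, and not for number 3, at 0.10. That difference rested on the triple-mutant arrays: it was -0.24 without triple-mutant replicate 1 and -0.69 without triple-mutant replicate 3.

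The 2 genes shared their highest genotype and differed in the place of the quadruple mutant, where LTI30 was below wild type on every array and COR27 had a higher mean than wild type. The root mean square distance between their profiles over the 9 arrays, each centred on its own mean, was 0.51 on the log2 scale. The profiles' own root mean square sizes were 0.68 for LTI30 and 0.40 for COR27. LTI30 has 1 RefSeq transcript and COR27 has 3, which a single probe set value does not tell apart. In such bulk tissue, fewer cells of a type and less RNA per cell cannot be told apart.

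A scaling of the arrays kept the direction of both genes. The wild-type array medians, at 5.79 to 5.89, lay below those of the triple mutant, at 5.92 to 5.95, and of the quadruple mutant, at 5.91 to 5.95. After each array was centred on its median, the median log2 difference over all probe sets was -0.12 in the triple mutant against wild type, where it had been -0.02 as deposited. LTI30 then stood at 0.95 and COR27 at 0.62 in that comparison. Quantile normalization gave 1.04 for LTI30 and 0.63 for COR27. In the quadruple mutant against wild type LTI30 moved from -0.44 to -0.53 with centring and to -0.47 with quantile normalization. COR27 moved there from 0.32 to 0.23 under either scaling.

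The genes around LTI30 and COR27 in function were thinly covered by the annotation used. It left 8730 probe sets of the array unlisted and gave several genes for 503. A gene counted as measured has a single-gene probe set in this annotation, and others may still be on the array. Of 154 genes on lists of dehydrins, cold regulators, cold-induced genes, LEA proteins, abscisic acid synthesis and signalling, clock, light signalling and handling responses, 21 had a single-gene probe set, and 19 besides LTI30 and COR27. No gene of the 12 for abscisic acid synthesis and turnover or of the 32 for its signalling was among them, and neither was a CBF factor. In the fit over all probe sets (limma, adjusted p under 0.05) 0 of the 19 passed in the triple mutant against wild type, beside 1.73% of all probe sets. Comparing the quadruple mutant with wild type gave likewise 0 of the 19, beside 0.044%, and 0 in the quadruple against the triple mutant, beside 2.22%. At an unadjusted limma p under 0.05 the counts were 4, 1 and 4. The median log2 difference of the 19 was 0.07, -0.02 and -0.12 in the same order, against -0.02, 0.00 and 0.03 over all probe sets.

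With the replicate number as a block, 6 of the 19 passed in the triple mutant against wild type and all 6 were higher, beside 4.14% of probe sets called higher in that fit. In that fit 0 of the 19 were called lower, beside 0.928% of probe sets. In the quadruple against the triple mutant 3 of the 19 passed and all 3 were lower, beside 3.6% called lower and 1.3% called higher. In the quadruple mutant against wild type the block gave 0 of the 19, beside 0.22% called higher and 0.0747% called lower. In the triple mutant 4 of the 19 had all arrays above all wild-type arrays, beside 7.89% of probe sets, and 0 had all below, beside 7.06%. In the quadruple mutant 1 had all arrays above wild type, beside 7.61%, and 0 all below, beside 5.17%. Against the triple mutant 0 had all quadruple-mutant arrays above, beside 8.93%, and 6 all below, beside 7.61%. These counts come from the arrays on which LTI30 and COR27 were chosen, and the last shares the triple-mutant arrays with the first.

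Of 10 dehydrin genes, LTI30 among them, 6 were measured, and the other 5 did not share one order of genotypes. AT4G38410, which was put on the dehydrin list by its locus, had a log2 signal of 8.29, 9.28 and 7.70 in wild type, 9.53, 10.09 and 9.75 in the triple mutant and 8.92, 9.44 and 9.25 in the quadruple mutant. All triple-mutant arrays were above the others, and the wild-type arrays were widely spread, with the lowest at number 3. Its log2 difference between the triple mutant and wild type was 1.37 (SE 0.33, limma adjusted p = 0.0765), and it passed with the block (limma adjusted p = 0.00678) and without wild-type replicate 2 (limma adjusted p = 0.0105). Against wild type the quadruple mutant stood at 0.78 (SE 0.33, limma adjusted p = 0.523), a sign opposite to that of LTI30. This value was 0.41 without wild-type replicate 3 and 1.204 without wild-type replicate 2. Against the triple mutant it stood at -0.59 (SE 0.33, limma adjusted p = 0.610).

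HIRD11 (AT1G54410), a small dehydrin, had a log2 signal of 12.26, 11.90 and 12.11 in wild type, 12.57, 12.46 and 12.42 in the triple mutant and 12.17, 11.99 and 12.13 in the quadruple mutant. The triple-mutant arrays were above all others and the other groups overlapped. The log2 difference was 0.39 between the triple mutant and wild type (SE 0.11, limma adjusted p = 0.114) and -0.38 between the quadruple and the triple mutant (SE 0.11, limma adjusted p = 0.121). Both passed with the block, at limma adjusted p = 0.0312 and 0.0342. COR47, a dehydrin gene named for its regulation by cold, had its highest mean in the quadruple mutant, at 11.69, 11.52 and 11.65. The other arrays stood at 11.49, 11.54 and 11.21 for wild type and 11.32, 11.53 and 11.12 for the triple mutant, and each genotype overlapped both others. Its log2 difference was 0.21 in the quadruple mutant against wild type (SE 0.13, limma adjusted p = 0.629) and 0.30 against the triple mutant (SE 0.13, limma adjusted p = 0.406), in each case with the sign opposite to LTI30. The first of these was 0.11 without wild-type replicate 3 and the second 0.19 without triple-mutant replicate 3. The remaining dehydrin-list genes AT2G21490 and AT4G39130 had group means of 3.44 to 3.69, near the low end of the arrays, whose lowest values were 2.45 to 2.59.

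Of 25 cold-induced genes, 4 were measured, COR27 among them. AT4G33980 had a log2 signal of 6.93, 6.76 and 6.63 in wild type, 7.88, 6.81 and 7.01 in the triple mutant and 7.21, 6.74 and 7.01 in the quadruple mutant. Its group means had the same order as those of COR27, and its highest value also came from the triple-mutant array numbered 1. Relative to wild type the triple mutant stood at a log2 difference of 0.46 (SE 0.24, limma adjusted p = 0.444) and the quadruple mutant at 0.21 (SE 0.24, limma adjusted p = 0.808). Between the mutants it was -0.25 (SE 0.24, limma adjusted p = 0.871), and it turned to 0.074 without triple-mutant replicate 1. Without that array the difference between the triple mutant and wild type was 0.14, and that between the quadruple mutant and wild type ranged from 0.10, without quadruple-mutant replicate 1, to 0.33, without quadruple-mutant replicate 2. COR15A and COR15B, which encode chloroplast proteins induced by cold through the CBF factors, had group means of 3.60 to 3.74 and 4.32 to 4.34, and their groups overlapped in all 3 comparisons.

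Of 11 LEA genes outside the dehydrins, 5 were measured, all with low signals. LEA4-2 stood at 3.47, 3.17 and 3.08 in wild type, 3.82, 3.91 and 3.86 in the triple mutant and 3.76, 3.48 and 2.96 in the quadruple mutant. The triple-mutant arrays were above the others, with a log2 difference from wild type of 0.62 (SE 0.18, limma adjusted p = 0.145) that passed with the block (limma adjusted p = 0.0341). Against the triple mutant the quadruple mutant stood at -0.46 (SE 0.18, limma adjusted p = 0.343), and at -0.24 without quadruple-mutant replicate 3. LEA4-5 stood at 0.35 in the triple mutant against wild type (SE 0.24, limma adjusted p = 0.561) and passed there without wild-type replicate 3, at 0.69 (limma adjusted p = 0.0330), whereas it stood at 0.18 without wild-type replicate 1 or 2 (limma adjusted p = 0.770 and 0.896). In the quadruple against the triple mutant LEA4-5 stood at -0.39 (SE 0.24, limma adjusted p = 0.677).

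**Figure D2:**
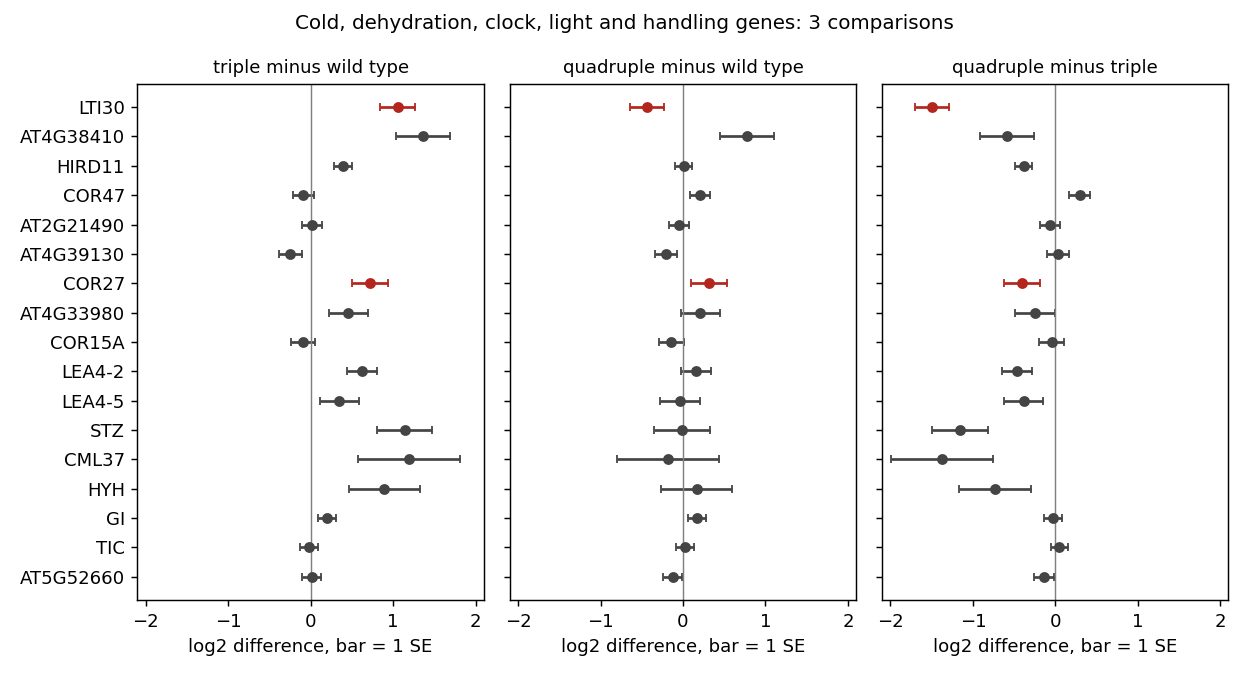
Log2 differences (horizontal axis, bars 1 SE) of LTI30 and COR27, in red, and of related genes, in grey, in the triple mutant against wild type, the quadruple mutant against wild type and the quadruple against the triple mutant. LTI30 stands at 1.06, -0.44 and -1.49, while COR47 and AT4G38410 lie on the positive side in the quadruple mutant against wild type.

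For the clock, in which COR27 acts, 1 of 14 genes on the morning list and 2 of 14 on the evening list were measured. GI, an evening-expressed clock component, had a log2 signal of 7.80, 7.68 and 7.68 in wild type, 8.00, 7.67 and 8.08 in the triple mutant and 7.91, 7.80 and 7.96 in the quadruple mutant. Relative to wild type the log2 difference of the triple mutant was 0.20 (SE 0.11, limma adjusted p = 0.480) and that of the quadruple mutant 0.17 (SE 0.11, limma adjusted p = 0.644). The first ranged from 0.12, without triple-mutant replicate 3, to 0.32, without triple-mutant replicate 2. TIC, which sustains the clock's rhythm, had group means of 8.39 to 8.44, and AT5G52660, on the morning list, of 6.06 to 6.20. HYH, a bZIP factor of light signalling related to HY5, stood at 6.13, 5.84 and 4.51 in wild type, 6.52, 6.95 and 5.69 in the triple mutant and 5.49, 6.20 and 5.29 in the quadruple mutant. The array numbered 3 was the lowest in each genotype, as for LTI30. HYH differed by 0.89 between the triple mutant and wild type (SE 0.43, limma adjusted p = 0.408, and 0.0407 with the block) and by -0.73 between the quadruple and the triple mutant (SE 0.43, limma adjusted p = 0.652). The first of these was 0.40 without wild-type replicate 3 and the second -0.45 without triple-mutant replicate 2.

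Of 10 genes that respond to touch, wounding and handling, 2 were measured, and both had their highest mean in the triple mutant, as LTI30 did. The first, STZ, was also the 1 gene measured of the 15 on the list of cold regulators. STZ, also called ZAT10, a zinc-finger repressor induced by cold, salt and wounding, stood at 9.22, 8.75 and 7.68 in wild type, 9.98, 9.64 and 9.47 in the triple mutant and 8.95, 8.37 and 8.30 in the quadruple mutant. The triple-mutant arrays were above the others and the wild-type array numbered 3 was the lowest of the 9. The log2 difference was 1.14 in the triple mutant against wild type (SE 0.34, limma adjusted p = 0.149) and -1.16 in the quadruple against the triple mutant (SE 0.34, limma adjusted p = 0.147), and with the block these passed at limma adjusted p = 0.00779 and 0.00663. Without the block STZ passed in the first comparison without wild-type replicate 1 (limma adjusted p = 0.0427) and in the second without wild-type replicate 3 (limma adjusted p = 0.0181). CML37, a calmodulin-like protein gene, stood at 6.54, 5.42 and 3.84 in wild type, 7.09, 6.43 and 5.84 in the triple mutant and 5.76, 5.31 and 4.18 in the quadruple mutant. For STZ and CML37 alike the array numbered 3 was the lowest in each genotype, as for LTI30. The log2 difference of CML37 was 1.19 in the first comparison (SE 0.62, limma adjusted p = 0.443, and 0.0145 with the block) and -1.37 in the second (SE 0.62, limma adjusted p = 0.460, and 0.00661 with the block). Without wild-type replicate 3 the first difference was 0.71 for STZ and 0.48 for CML37, and without wild-type replicate 1 it was 1.83 for CML37. The summed signal of both genes, on the log2 scale, ran from 7.78 to 9.43 on wild-type arrays, from 9.58 to 10.16 on triple-mutant arrays and from 8.38 to 9.10 on quadruple-mutant arrays. STZ, the brighter gene, makes up most of this sum. The part of handling in the LTI30 and COR27 levels was not tested.

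Of 14 root-tip markers, 2 were measured, AGL42, expressed in the quiescent centre, and BBM, an AP2 factor of stem cells. Both passed in the quadruple against the triple mutant and were higher there, AGL42 by 1.33 (SE 0.15, limma adjusted p = 0.00149) and BBM by 0.45 (SE 0.09, limma adjusted p = 0.0353) on the log2 scale, beside 2.22% of all probe sets called in that comparison. Against wild type neither passed in the quadruple mutant (limma adjusted p = 0.203 for AGL42 and 0.0947 for BBM), beside 0.044% of all probe sets. With the block both passed (limma adjusted p = 0.0251 and 0.0325), beside 0.22% of probe sets called higher. In that comparison the replicate numbers were not read as pairing the arrays. The genotype order of AGL42 was the reverse of that of LTI30, at 6.04, 5.66 and 5.97 in wild type, 5.50, 5.09 and 5.19 in the triple mutant and 6.66, 6.35 and 6.76 in the quadruple mutant. BBM was highest in the quadruple mutant, at 8.38, 8.33 and 8.35, against 7.94, 7.75 and 8.00 for the triple mutant and 7.68 to 7.86 for wild type. In the triple mutant against wild type AGL42 stood at -0.63 (SE 0.15, limma adjusted p = 0.0737, and 0.00516 with the block). BBM stood there at 0.15 (SE 0.09, limma adjusted p = 0.526). The summed signal of the pair, on the log2 scale, ran from 8.01 to 8.22 on wild-type, from 7.96 to 8.20 on triple-mutant and from 8.65 to 8.76 on quadruple-mutant arrays. BBM, the brighter of the pair, makes up most of this sum, which thus shows little of AGL42. Of 5 root-hair markers, EXPA7 and EXPA18 were measured, at 3.48 to 4.14 on all 9 arrays, and their sum lay between 4.78 and 5.10 with overlapping groups. EXPA7 alone had all arrays of both mutants, at 3.85 to 3.95, below all wild-type arrays, at 4.04 to 4.14, and passed in neither comparison (limma adjusted p = 0.345 for the triple and 0.501 for the quadruple mutant). Of 10 genes of green shoot tissue, LHCB4.1, a light-harvesting protein gene, was measured, with wild-type arrays from 6.40 to 7.71, triple-mutant arrays from 6.91 to 7.40 and quadruple-mutant arrays from 6.74 to 7.02. The part of cell makeup in the LTI30 and COR27 levels was not tested.

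The mean of 18 hybridization spike-in probe sets, which are added to the sample and do not come from the plant, was 10.16 to 10.29 on the triple-mutant arrays, 9.83 to 10.07 in wild type and 9.94 to 10.02 in the quadruple mutant. The spike-ins were thus highest on the arrays where LTI30 was highest, and among the triple-mutant arrays they were highest on number 3, where LTI30 was lowest. Over all 9 arrays their array means ran from 9.83 to 10.29. The part of the spike-in signal in the LTI30 and COR27 differences was not tested.

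**Figure D3:**
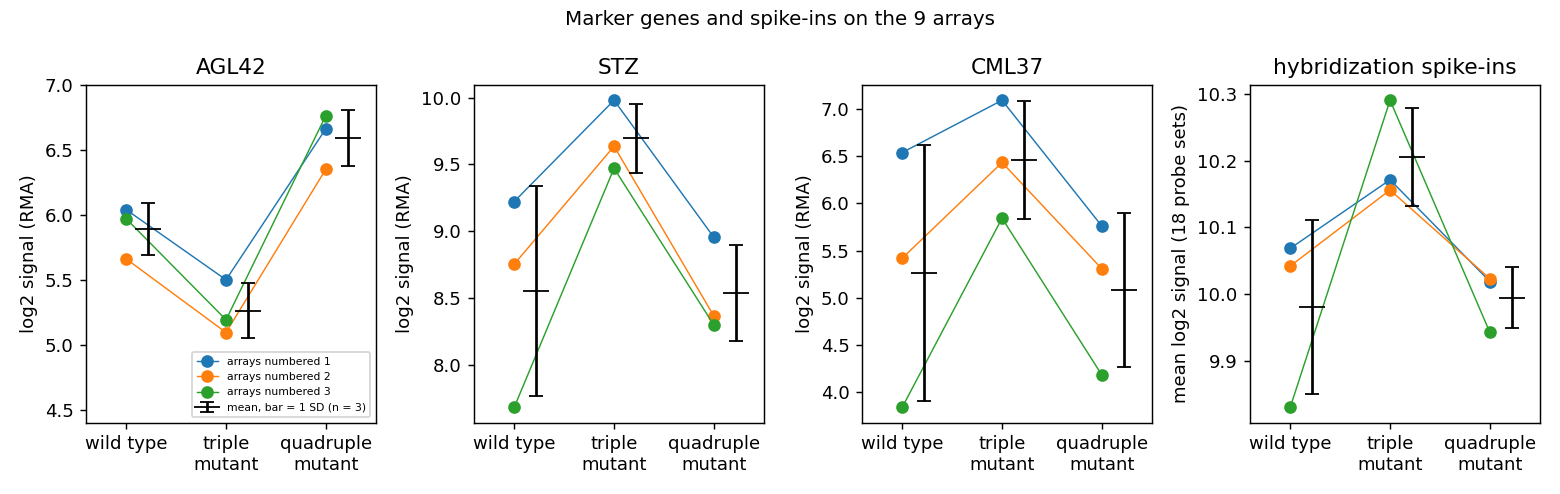
Log2 signal of the quiescent-centre gene AGL42, of STZ and CML37, and the mean log2 signal of 18 hybridization spike-in probe sets, by genotype. Points are arrays, lines join arrays of 1 replicate number and bars show the mean and 1 SD (n = 3). AGL42 is lowest in the triple mutant (5.09 to 5.50), and STZ (9.47 to 9.98) and the spike-ins (10.16 to 10.29) are highest there. BBM, the other root-tip marker measured, is not drawn. In the triple mutant against wild type its log2 difference was 0.15 and that of AGL42 -0.63.

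The profiles most like that of LTI30 over the 9 arrays were sought among the other 13355 genes, by the root mean square distance of log2 values centred on each gene's mean. The nearest was CLE41 (AT3G24770), whose peptide product acts on vascular stem cells, at a distance of 0.13. CLE41 stood at 6.11, 6.23 and 5.76 in wild type, 7.26, 7.72 and 6.98 in the triple mutant and 5.78, 5.93 and 5.61 in the quadruple mutant. As in LTI30, the array numbered 2 was the highest and number 3 the lowest in wild type and in the triple mutant. The next were SUFE2 (AT1G67810), which encodes an activator of a cysteine desulfurase, AT5G04000, AT1G75190 and AT3G21680, at distances of 0.20 to 0.21. Over the 5 genes the log2 difference from wild type ranged from 0.68 to 1.28 for the triple mutant and from -0.47 to -0.21 for the quadruple mutant. These genes were selected for their likeness, so their shared order is a description.

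For COR27 the nearest profiles were AT4G30650, AT5G57910, AT3G57450, AT2G24040 and AT2G31945, all at distances of 0.19 to 0.20, set against the root mean square size of 0.40 of the COR27 profile itself. COR27 thus had no profile as close to it as CLE41 was to LTI30. AT4G30650 stood at 7.21, 6.25 and 6.36 in wild type, 7.46, 7.22 and 6.79 in the triple mutant and 6.94, 6.59 and 6.63 in the quadruple mutant, with the array numbered 1 the highest in each genotype, as for COR27. Over the 5 genes the log2 difference from wild type ranged from 0.39 to 0.71 for the triple mutant and from 0.03 to 0.33 for the quadruple mutant.

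**Figure D4:**
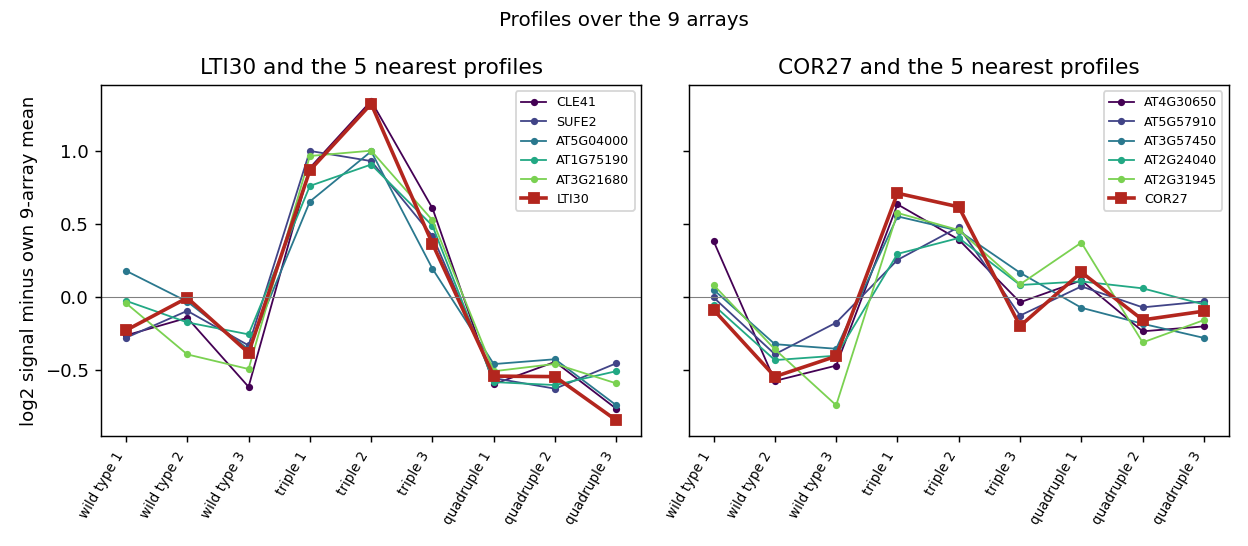
Log2 signal minus the gene's own mean over 9 arrays (vertical axis) on each array (horizontal axis) for LTI30, left, and COR27, right, in red squares, with the 5 genes of nearest profile. CLE41 follows LTI30 at a root mean square distance of 0.13, and the COR27 neighbours lie at 0.19 to 0.20.

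Neighbours on the chromosome gave little. Of the 4 annotated genes nearest to LTI30, which include the dehydrin gene XERO1, 1 was measured, AT3G50990, a peroxidase gene, with group means of 3.56 to 3.78. Of the 4 nearest to COR27, AT5G42910 was measured, with group means of 3.21 to 3.29. Both were near the low end of the arrays and neither had its highest mean in the triple mutant.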

How the data were processed

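RNA of 9 samples, 250 ng each, was labelled with biotin and hybridized to Affymetrix ATH1 arrays, per the labels' protocols. The deposited values are log2 signals, 1 per probe set and array; Affymetrix Expression Console, RMA and limma are named per the submitters' processing notes, without version or role. As a method, RMA quantile-normalizes arrays, so differences are relative to other transcripts. Of 22810 probe sets, 64 controls were left out of the tests. The platform annotation gave 1 gene for 13513 probe sets, several for 503 and did not list 8730, unnamed here. Symbols were updated through Entrez identifiers with RefSeq (TAIR10.1), without a match for 77.

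Arrays were grouped by genotype and numbered by title. Limma 3.58.1 in R 4.3.3 fitted a mean per genotype over 9 arrays (6 residual degrees of freedom), with Benjamini-Hochberg adjustment over 22746 probe sets per comparison. The code was tried on simulated data with independent noise on each array, which does not cover correlation between same-numbered arrays. SEs are those of limma. Where several probe sets named 1 gene, the one with the highest mean was used. The members, lists and rules were chosen with earlier results of these data known. Named genes were LTI30, COR27, measured dehydrins, AT4G33980, PHV, per list every called gene and the 2 largest differences in the triple mutant against wild type and the quadruple against the triple mutant, and the 5 nearest profiles of each member; markers, neighbours and LEA4-1, M10, M17 and COR15B serve as counts or levels. The labels call the arrays biological replicates without saying how seedlings were divided, so p-values measure the spread between these arrays. The number of arrays limits the precision.

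Same-numbered arrays were checked for pairing before blocked calls were compared: their deviations from the genotype means correlated at 0.273, 0.330 and 0.408 between the triple mutant and wild type and at 0.217, 0.340 and 0.515 between the mutants, so the titles' numbers were read as pairing these arrays. Between the quadruple mutant and wild type they were 0.043, 0.342 and 0.360, which was not read as pairing. Alternatives were the replicate block, quantile normalization, median centring, medians over replicates, a minimum mean log2 value of 5, array weights, robust estimation with a variance trend, and leaving out arrays.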

Additional observations from a re-analysis of the deposited data

How the results depend on the processing

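The LTI30 and COR27 differences kept their direction in all 3 comparisons under every alternative run on them. The replicate block cannot change a difference here, and neither can leaving out an array of the genotype not compared. Those runs are no check of direction. The differences moved by less than 1 SD within genotypes, pooled over the 3, which was 0.31 for LTI30 and 0.33 for COR27, though some moves exceeded the SD of wild type or of the quadruple mutant alone. Left-out arrays gave -1.74 to -1.26 for LTI30 between the mutants, 0.55 to 1.01 for COR27 between the triple mutant and wild type and 0.22 to 0.45 between the quadruple mutant and wild type. Medians over replicates gave 1.02 for COR27 in the triple mutant against wild type and -0.71 between the mutants. Without all arrays numbered 3, an alternative chosen after seeing the data, LTI30 stood at 1.21, -0.43 and -1.64 and COR27 at 0.98, 0.32 and -0.66 in the triple against wild type, the quadruple against wild type and between the mutants.

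Counts of calls over all probe sets moved more. With the replicate block they were 1152 in the triple mutant against wild type (393 without it), 67 in the quadruple mutant against wild type (10 without it, where the numbers were not read as pairing) and 1114 between the mutants (504 without it). Among the 19 related genes the block gave 6, 0 and 3 calls in place of 0. The block changed no call of COR47, GI, AT4G33980 or LEA4-5. Array weights gave 1663 calls between the mutants and 2 among the related genes. Without all arrays numbered 3 the counts were 166 and 2 in the triple and the quadruple mutant against wild type, with fewer samples in the fit. With 1 array left out, calls ranged from 182 to 647 in the triple mutant against wild type (647 and 194 without wild-type replicates 1 and 2, 182, 199 and 254 without triple replicates 1, 2 and 3, 249 without quadruple replicate 1). They ranged from 4 to 59 in the quadruple mutant against wild type, where 59 came without wild-type replicate 1, and from 220 to 610 between the mutants. There the quadruple replicates 1, 2 and 3, each left out, gave 235, 238 and 295, and triple replicates 1 and 2 gave 220 and 298. The related genes gave 0 to 1 calls in the first and the last of these comparisons and 0 in the second. The difference of AT4G33980 between the mutants ranged from -0.46 to 0.074, the latter without triple-mutant replicate 1. The cause of these shifts was not tested. No detection calls were used, so for COR27 and the LEA genes signal over background was not assessed.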

Other observations

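A wider set was taken from words for cold, drought, dehydration or late embryogenesis in the RefSeq names, after some of its values had been seen, and no test was made on it. It added 6 genes to the lists. In 3 of the 6 all triple-mutant arrays lay above all wild-type and all quadruple-mutant arrays, as for 4.37% of all probe sets. SRC2 (AT1G09070), named after a soybean gene regulated by cold, stood at 8.55, 8.95 and 8.35 in wild type, 9.37, 9.99 and 9.37 in the triple mutant and 8.61, 7.95 and 8.71 in the quadruple mutant. Its log2 difference was 0.96 in the triple mutant against wild type (SE 0.24) and -1.16 between the mutants (SE 0.24).

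The drought-induced genes DI19 and DI21 were smaller in difference. DI19 stood at 10.80, 10.70 and 11.21 in wild type, 11.39, 11.50 and 11.44 in the triple mutant and 11.01, 10.84 and 11.17 in the quadruple mutant. DI21 stood at 0.37 in the triple mutant against wild type (SE 0.09) and -0.22 between the mutants (SE 0.09). The other 3 genes, AT2G44060, AT2G46140 and DOR, differed from wild type by -0.03 to 0.12 in the triple mutant. Over the 14 genes of the set besides LTI30 and COR27 the median log2 difference was 0.09 in the triple mutant against wild type, -0.01 in the quadruple mutant against wild type and -0.17 between the mutants, against -0.02, 0.00 and 0.03 over all probe sets.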
